A study of Mus musculus with 6 samples.

Results

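The serpins (serine protease inhibitors) are a family of secreted and intracellular proteins named by clade, with a letter from a to i and a number. The 64 genes whose symbol was Serpin, a clade letter and a number were taken from the 55421 genes of the deposited tables, and they were placed by symbol alone into a Serpina3 group of 11 genes, a Serpinb group of 28 genes and 25 other serpins. Expression was measured by RNA-seq in microdissected cerebral cortex of 3 mice of 6 months (mice 10, 11 and 17) and 3 mice of 24 months (mice 2, 4 and 5). All 6 were wild-type C57BL/6J males on one standard diet, all were anaesthetized with isoflurane before cervical dislocation, and the ages were the only labelled difference between the groups. Each library came from 1 mouse and 10 ng of total RNA, and was read in 75-base reads. The comparison asked which serpins differed in mRNA level between young adult and old cortex.

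A typical serpin exposes a reactive centre loop as bait. The target protease cuts the loop, the serpin snaps into a new fold, and both proteins are locked together and then cleared. In the brain, neuroserpin (Serpini1) and protease nexin-1 (Serpine2) are known inhibitors of plasminogen activators and thrombin, while Serpina3n is known as an acute-phase protein of astrocytes. Most clade b serpins lack a classical signal peptide and act inside cells, for example against granzymes and cathepsins, and many clade a serpins are plasma proteins made in the liver.

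The libraries held 29495379 to 36494240 counts on genes. At least 1 count was found on 33974 to 35651 genes at 6 months and on 40208 to 43561 genes at 24 months, although the older libraries were not deeper. The same was seen in the family, of which 44, 46 and 48 members were detected at 6 months and 64, 62 and 61 at 24 months. Counts were scaled with the TMM factors of edgeR and tested with its quasi-likelihood test for the 32905 genes with at least 10 counts over the 6 mice. The false discovery rate (FDR) was adjusted over all of these genes, and a gene was called at 10% FDR. With TMM factors the median log2 fold change (24 against 6 months) of the genes tested at a mean of at least 1 CPM (counts scaled to library size) was -0.14, and with library totals alone it was 0.047 (a shift of 0.19 over all genes tested). Values relative to this median are given for Serpine2 and Serpini1 only.

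A small set of members carried almost all serpin mRNA. In TPM, the deposited scale on which levels are corrected for gene length, 13 members had a mean of at least 1 TPM and together held 97.9% of the family's TPM. Neuroserpin alone held 43.1% and protease nexin-1 held 23.8%. The other 51 members held 2.07%. The summed level of the family was 533.6 ± 14.9 TPM at 6 months and 497.0 ± 53.0 TPM at 24 months (SD, n = 3 mice per age), and the mice overlapped. By position, 24 members lay on chromosome 12, including the 11 genes of the Serpina3 group, and the Serpinb group was split between chromosome 1 (12 genes) and chromosome 13 (16 genes).

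**Figure D1:**
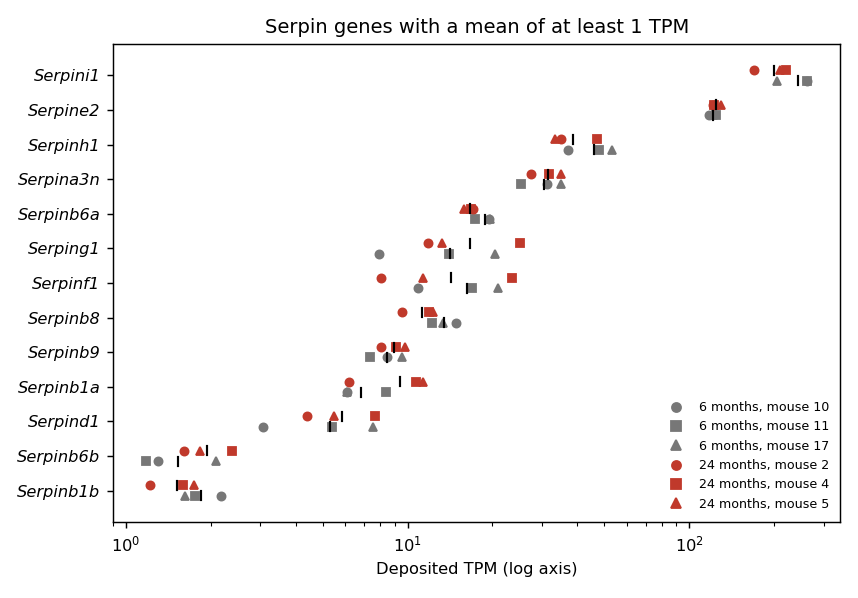
Deposited TPM (log axis) of the 13 serpins with a mean of at least 1 TPM, with 1 point per mouse (grey, 6 months, red, 24 months, symbols by mouse) and a black tick at the mean of each age. Serpini1 and Serpine2 lie above 100 TPM in every mouse, and the ages overlap for most genes.

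Promoters of 4 genes are shown because the results turn on them: the pair that dominates the family, and Serpinb9b, the member with the smallest p-value, which is set beside its neighbour Serpinb9. Each is the 250 bases upstream of a RefSeq transcript start on GRCm38.p6, 5′ to 3′ on the strand of the gene. By the gene spans given below, the Serpine2 and Serpinb9 windows lie inside the annotated gene and not before its first base. Serpini1 is at chr3:75557243-75557492 (plus strand), Serpine2 at chr1:79858666-79858915 (minus strand), Serpinb9 at chr13:33004291-33004540 (plus strand) and Serpinb9b at chr13:33027164-33027413 (plus strand). Capitals mark the GC box GGGCGG, searched on both strands with overlaps allowed, a motif bound by Sp1-type factors.
Serpini1: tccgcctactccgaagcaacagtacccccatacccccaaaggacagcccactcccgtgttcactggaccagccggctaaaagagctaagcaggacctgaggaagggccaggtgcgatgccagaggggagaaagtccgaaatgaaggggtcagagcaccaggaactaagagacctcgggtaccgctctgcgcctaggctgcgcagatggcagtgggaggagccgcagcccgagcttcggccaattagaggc
Serpine2: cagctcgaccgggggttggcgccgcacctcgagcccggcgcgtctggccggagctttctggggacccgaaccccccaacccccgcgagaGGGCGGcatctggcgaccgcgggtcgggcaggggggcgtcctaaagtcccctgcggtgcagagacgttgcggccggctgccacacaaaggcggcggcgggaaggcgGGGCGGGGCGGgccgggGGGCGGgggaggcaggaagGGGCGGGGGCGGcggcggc
Serpinb9: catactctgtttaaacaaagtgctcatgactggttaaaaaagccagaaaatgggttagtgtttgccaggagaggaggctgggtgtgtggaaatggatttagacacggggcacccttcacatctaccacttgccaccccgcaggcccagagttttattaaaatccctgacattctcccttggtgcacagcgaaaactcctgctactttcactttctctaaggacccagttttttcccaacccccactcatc
Serpinb9b: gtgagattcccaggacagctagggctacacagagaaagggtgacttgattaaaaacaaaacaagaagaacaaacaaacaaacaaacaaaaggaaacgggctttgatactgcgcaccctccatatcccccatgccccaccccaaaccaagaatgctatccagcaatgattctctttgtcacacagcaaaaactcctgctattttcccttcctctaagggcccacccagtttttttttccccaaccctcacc
Only the Serpine2 window among these 4 held the motif. Promoters were available for 54 members, with 63 promoters in all. The GC box was found in 7 of these members and 11.1% of their promoters, against 32.7% of all 32851 promoters. The TATA box TATAAA was found in 14 members and 27% of their promoters, against 12.4% of all promoters. A match describes the letters in the window and nothing about use of the site.

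The inhibitors of plasminogen activators and thrombin had the highest levels. Neuroserpin (Serpini1, ENSMUSG00000027834.15, GRCm38 chr3:75557547-75643495, plus strand) is a neuronal inhibitor of tissue plasminogen activator. Its counts were 16904, 18687 and 13906 in the 6-month mice 10, 11 and 17 and 10536, 14667 and 13647 in the 24-month mice 2, 4 and 5. Scaled with TMM factors these were 548.2, 541.2 and 424.6 CPM against 324.7, 423.9 and 401.0 CPM. The ages did not overlap on this scale, but the gap between the 6-month mouse 17 and the 24-month mouse 4 was below 1 CPM, and on the TPM scale both mice crossed (205.3 and 221.4 TPM). Serpini1 was the only member called lower at 24 months (log2 fold change -0.40, SE 0.13, FDR 0.0858 in edgeR's quasi-likelihood test), where 8.33% of all genes tested and 14.7% of genes of at least 1 TPM were called lower. It was no longer called with library totals (log2 fold change -0.21, FDR 0.285), with DESeq2 (FDR 0.128), or when mouse 10 (FDR 0.227), mouse 11 (FDR 0.310), mouse 2 (FDR 0.211) or mouse 4 (FDR 0.233) was left out.

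All 7 genes of the neuron marker list had a fitted value below 0 (median -0.24), and 1 of them, Syt1, a calcium sensor of synaptic vesicles, was called lower (log2 fold change -0.40, FDR 0.0651), a share close to the 14.7% of genes of at least 1 TPM called lower. The median of all genes between 100 and 300 TPM was -0.22, and 12077 of the 18619 genes tested of at least 1 TPM were fitted lower. With library totals 3 of the 7 turned positive, Slc17a7 (0.13), Rbfox3 (0.023) and Nefl (0.0031). The summed level of this list was 8609 to 10066 CPM at 6 months and 6358 to 8424 CPM at 24 months. Its part in the Serpini1 value was not tested. In bulk tissue, fewer cells of a type and less RNA per cell cannot be told apart. The target of neuroserpin, tissue plasminogen activator (Plat), had counts of 1496, 2015 and 1859 at 6 months and 1379, 1369 and 1328 at 24 months. It was called lower as well (log2 fold change -0.43, SE 0.10, FDR 0.0552), with a log2 fold change of -0.24 with library totals.

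Protease nexin-1 (Serpine2, chr1:79794197-79861180, minus strand) inhibits thrombin, urokinase and tissue plasminogen activator. It stood at 121.3 ± 3.17 TPM at 6 months and 124.5 ± 4.83 TPM at 24 months (SD, n = 3). Its counts were 8633, 10059 and 9342 against 8544, 9231 and 9637, and the ages overlapped. The log2 fold change was -0.075 (SE 0.082, FDR 0.556) with TMM factors and turned to 0.12 with library totals. Relative to the median gene of at least 1 CPM it differed by 0.069 on the log2 scale, and Serpini1 by -0.25.

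The remaining plasma-type inhibitors that cortex expressed showed a spread between mice of the same age that exceeded any difference between ages. Serping1, the C1 inhibitor of complement, had counts of 162, 318 and 441 at 6 months and 233, 531 and 275 at 24 months (log2 fold change 0.13, SE 0.35, FDR 0.821). Serpinf1, pigment epithelium-derived factor, a member without known protease inhibition, had 226, 390 and 460 against 161, 503 and 240 (log2 fold change -0.30, SE 0.36, FDR 0.594). Serpind1, heparin cofactor II, had 59, 115 and 153 against 82, 153 and 107 (log2 fold change 0.025, SE 0.31, FDR 0.969). All 3 genes ran in the same mouse order within each age, lowest in mouse 10 and highest in mouse 17 at 6 months, and lowest in mouse 2 and highest in mouse 4 at 24 months. The summed level of 6 meningeal fibroblast markers had that order too, at 47.1, 65.8 and 89.1 CPM in the 6-month mice 10, 11 and 17 and 41.3, 95.6 and 59.6 CPM in the 24-month mice 2, 4 and 5. None of those 6 markers was at 0 in any mouse, and their part in these 3 genes was not tested. When mouse 10 was left out, the log2 fold changes of Serping1 and Serpind1 turned to -0.15 and -0.25, and when mouse 4 was left out they turned to -0.23 and -0.17.

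Serpinh1 (chr7:99345376-99353239, minus strand) encodes HSP47, a collagen chaperone of the endoplasmic reticulum that does not inhibit proteases. Its counts were 798, 1136 and 1208 at 6 months and 728, 1049 and 732 at 24 months, and its level was 46.0 ± 8.22 TPM against 38.6 ± 7.53 TPM (SD, n = 3). The difference did not pass the test (log2 fold change -0.37, SE 0.17, FDR 0.169). Among 13 collagen and heat shock partners, 4 were called lower and 0 higher, where 14.7% of genes of at least 1 TPM were called lower. The list's median was -0.20, and that of all genes between 30 and 100 TPM was -0.22. They were the chaperone Hsph1 (log2 fold change -0.52, FDR 0.0518), the prolyl hydroxylase subunits P4ha1 (-0.72, FDR 0.0518) and P4hb (-0.28, FDR 0.0834), and the small heat shock protein Hspb1 (-0.87, FDR 0.0697). With library totals P4hb was at -0.089, P4ha1 at -0.52, Hsph1 at -0.33 and Hspb1 at -0.68.

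In the Serpina3 group, Serpina3n was the only gene expressed at more than 1 TPM. Serpina3n (chr12:104406729-104414329, plus strand) is a secreted inhibitor that rises in reactive astrocytes. Its counts were 569, 509 and 674 at 6 months and 482, 597 and 645 at 24 months, equal to 30.6 ± 4.96 and 31.4 ± 3.78 TPM (SD, n = 3), and the ages overlapped. The log2 fold change was -0.074 (SE 0.15, FDR 0.762) with TMM factors and 0.12 with library totals. In the same libraries the astrocyte filament gene Gfap had counts of 4029, 6008 and 5442 against 9421, 10624 and 5584 and was called higher (log2 fold change 0.69, SE 0.21, FDR 0.0738). The complement gene C4b, with counts of 115, 269 and 219 against 487, 577 and 321, was called higher as well (log2 fold change 1.17, SE 0.28, FDR 0.0552). It was the only one called of 13 genes of the cytokine response, of which Stat3 had a log2 fold change of -0.26 (FDR 0.107) and Lcn2 2.05 on counts of 1, 0 and 2 against 6, 6 and 2 (FDR 0.146). Gfap was also the only one called of 8 astrocyte markers, whose median was -0.048. Of all genes tested 10.0% were called higher and 8.33% lower, and of the 18619 of at least 1 TPM, 437 and 2733.

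The other 10 genes of the Serpina3 group had between 0 and 11 counts in any mouse. One of them, Serpina3j, was called higher, with counts of 2, 1 and 0 at 6 months and 8, 8 and 4 at 24 months (log2 fold change 2.55, FDR 0.0742). Their summed counts were 20, 19 and 16 at 6 months and 72, 47 and 32 at 24 months. Thus, the group's median log2 fold change of 1.89 over the 10 genes tested came from genes with a few counts, and the gene that carried nearly all of its mRNA lay close to 0.

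Promoters of 5 genes of this cluster were picked because they hold the letters AGAAATCA, and the stretch around these letters is shown. Serpina3n and Serpina3c differ there from the other 3 by 1 base of a motif. The Serpina3b promoter holds a like stretch (tcaccataaatcatcc) without these letters, so it was not picked. The split among the genes shown thus depends on the letters used for the search. The gamma-activated site TTCNNNGAA, a motif bound by STAT factors, was found in 8 of 54 members and 15.9% of their promoters, against 7.02% of all promoters (the motif reads the same on both strands). Serpina3f, Serpina3g and Serpina3i held it within a stretch that could be aligned to Serpina3c and Serpina3n. In the lines below (RefSeq, GRCm38.p6, 5′ to 3′ on the strand of the gene), capitals mark the 9 bases of the motif.
Serpina3c: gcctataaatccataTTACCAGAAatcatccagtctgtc
Serpina3f: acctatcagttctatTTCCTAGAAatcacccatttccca
Serpina3g: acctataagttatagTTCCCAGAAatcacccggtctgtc
Serpina3i: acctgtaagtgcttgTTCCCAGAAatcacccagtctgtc
Serpina3n: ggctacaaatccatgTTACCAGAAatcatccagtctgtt
The stretches lie at chr12:104153969-104154007 (Serpina3c, minus strand), chr12:104214408-104214446 (Serpina3f), chr12:104236099-104236137 (Serpina3g), chr12:104263005-104263043 (Serpina3i) and chr12:104406570-104406608 (Serpina3n, all plus strand). Serpina3c and Serpina3n carried the substitution C3A, in which positions are counted from 1 at the first base of the motif and the base of the motif comes first. With 1 mismatch allowed the motif was found in 65.8% of all promoters, so such a match is common. The counts of the 3 genes with the full motif were 2, 1 and 1 against 11, 7 and 1 for Serpina3f, 2, 8 and 5 against 11, 10 and 6 for Serpina3g, and 3, 0 and 0 against 5, 4 and 5 for Serpina3i. None of them passed 10% FDR. Serpina3n and Serpina3g share coding sequence, with 100 bases as their longest common run, and 1.8% of the 69-base windows of Serpina3n transcripts occurred in another gene.

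The Serpinb group had 6 members of at least 1 TPM. None of them was called, where 437 of the 18619 genes tested at this level were called higher and 2733 lower. Serpinb6a (chr13:33917918-34002794, minus strand), an intracellular inhibitor of cathepsin G-type proteases, had counts of 927, 912 and 987 at 6 months and 788, 825 and 770 at 24 months, equal to 18.8 ± 1.30 and 16.6 ± 0.612 TPM (SD, n = 3). The mice did not overlap on the CPM scale, and the test missed the threshold (log2 fold change -0.29, SE 0.10, FDR 0.102). Its exons overlap Ripk1, Nqo2 and 1110046J04Rik on the opposite strand, and the counting was not stated to use strand. Serpinb8 had counts of 626, 571 and 594 against 390, 519 and 528 (log2 fold change -0.37, SE 0.14, FDR 0.111), again with all 24-month mice below on the CPM scale. Serpinb1b had 37, 33 and 29 against 20, 28 and 30 (log2 fold change -0.39, SE 0.26, FDR 0.318). With Serpini1 these were the 4 members whose 24-month mice all lay below the 6-month mice in CPM, where 16.2% of all genes and 28.1% of genes of at least 1 TPM did so. With library totals none of the 4 kept that separation (0 members).

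Serpinb1a, an inhibitor of neutrophil elastase, and Serpinb6b had positive fitted values that did not pass the test. The counts of Serpinb1a were 124, 188 and 130 against 121, 224 and 233 (log2 fold change 0.34, SE 0.24, FDR 0.347), and those of Serpinb6b were 26, 26 and 44 against 31, 49 and 37 (0.24, SE 0.29, FDR 0.597). Of the cathepsins that clade b serpins can bind, 0 of 8 were called by edgeR, whereas 1 had an unadjusted p under 0.05. That was Ctsl (log2 fold change -0.23, FDR 0.152), and Ctsb had -0.17 (FDR 0.194), which turned to 0.018 with library totals, when Ctsl was at -0.040. Of 6 neutrophil markers 0 were called and 0 had an unadjusted p under 0.05. Over all genes tested, 18.4% were called in either direction.

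Serpinb9 and Serpinb9b are neighbours that gave different values. Serpinb9 (chr13:33003250-33017957), the inhibitor of granzyme B in cytotoxic lymphocytes and other cells, had counts of 261, 250 and 310 at 6 months and 240, 288 and 305 at 24 months. Its log2 fold change was -0.028 (SE 0.15, FDR 0.916) with TMM factors and 0.16 with library totals, and the ages overlapped. Serpinb9b (ENSMUSG00000021403.3, chr13:33027416-33041884, plus strand), which the study also followed by quantitative PCR (not used here), had counts of 2, 1 and 4 at 6 months and 22, 19 and 13 at 24 months. All older mice lay above all younger mice, at 0.0756 ± 0.0494 against 0.609 ± 0.169 TPM (SD, n = 3). The log2 fold change was 2.84 (SE 0.51, FDR 0.0518), and the ratio of scaled counts was 7.49, with a 95% interval of 3.40 to 19.5 that covers counting error only. DESeq2 gave an adjusted p of 0.0123. Serpinb9 stood at 8.96 ± 0.853 TPM at 24 months, well above Serpinb9b.

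Full-length reads that match exactly could be told apart between these neighbours. Shorter trimmed reads, and reads mapped with the mismatches that the study allowed, were not examined. The longest run of bases common to their coding sequences was 62 bases, in GENCODE vM21 transcripts and at positions 261 to 322 from the first base of the start codon in both:
Serpinb9b and Serpinb9: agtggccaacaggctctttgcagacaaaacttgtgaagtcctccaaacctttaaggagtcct
No window of 69 bases (a read after 6 bases in all are clipped from its ends) occurred in transcripts of both genes. Of the Serpinb9b windows, 3.76% occurred in another gene, the antisense gene Gm36099, and none in another serpin. By contrast, Serpinb9f shared 68.9% of its windows with relatives and Serpinb9h 75.2%, and their coding sequences had 437 bases in common without a break. Serpina1a and Serpina1c shared a run of 728 bases. The counts of these copies are uncertain, since reads from them can be split or dropped. Over the family, 23 members shared no window with any gene.

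At 10% FDR, 10 members were called higher at 24 months, 1 in the Serpina3 group, 5 in the Serpinb group and 4 among the other serpins. That was 10 of 56 tested, where 10.0% of all genes tested were called higher. All 10 had a mean below 1 TPM, and among the genes of this level 20.0% were called higher, close to the 10 of 43 serpins. Of the 5663 protein-coding genes tested at this level, 1624 were called higher. No member passed the 1% FDR of the study in the quasi-likelihood test (0 of 56, and 0.00% of all genes), whereas 16 members were higher at an unadjusted p under 0.05 (17.6% of all genes and 34.7% of those below 1 TPM) and 3 were lower (13.1%). With library totals these numbers were 25 and 0. At 1% FDR the likelihood ratio test of edgeR called 8 members (5.18% of all genes), its exact test 3 (3.41%) and DESeq2 0 (0.836% of genes with an adjusted p). The 8 and the 3 were all among the 10, with a mean below 1 TPM. The shares of these tests among genes of that level were not computed, so the shares over all genes are not level-matched. Of the 10 members, 3 were also called by DESeq2 at 10% FDR, and 5 had no adjusted p there. Serpina6, Serpina1b, Serpina16, Serpinb9f and Serpinb3b had 0 or 1 count at 6 months. Of the 10, only Serpinc1, with 41 counts at 6 months, would have reached the minimum of 10 counts without the 24-month mice. The others, among them Serpinb9b with 7 counts at 6 months, reached it only through the older mice. Their calls are therefore given as a description of these counts. The same holds for called genes of the lists below with under 10 counts at 6 months. Leaving out any one of mice 10, 11, 2 and 4 brought these 10 calls to 0. Leaving out mouse 17 gave 5 calls, and leaving out mouse 5 gave 16.

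**Figure D2:**
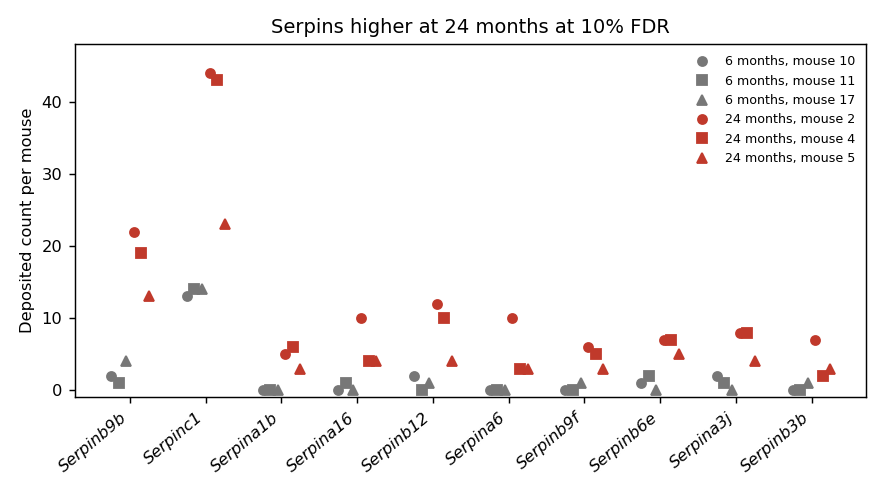
Deposited count per mouse (linear axis) of the 10 serpins called higher at 24 months at 10% FDR, 1 point per mouse (grey, 6 months, red, 24 months). Serpinb9b and Serpinc1 reach 22 and 44 counts, and the other 8 genes have at most 12 counts in any mouse.

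Of the called genes outside clade b, Serpinc1, Serpina6 and Serpina1b are known mainly as liver products. Serpinc1 (antithrombin, chr1:160978585-161005863, plus strand) had counts of 13, 14 and 14 at 6 months and 44, 43 and 23 at 24 months (log2 fold change 1.38, SE 0.32, FDR 0.0552). All older mice lay above the younger ones, and the ratio was 2.60 (95% counting interval 1.80 to 3.82). Of its 8546 exonic bases, 2942 overlap exons of Zbtb37 on the opposite strand, whose counts were 125, 121 and 142 against 122, 141 and 145 (log2 fold change 0.025). Serpina6, corticosteroid-binding globulin, had 0 counts in each 6-month mouse and 10, 3 and 3 at 24 months (FDR 0.0632). Set against a floor of 3 counts over the 6-month libraries, its ratio was 5.18, which leaves out the counting error at 24 months.

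Serpina1b, an alpha-1-antitrypsin gene, had 0 counts at 6 months and 5, 6 and 3 at 24 months (FDR 0.0561). Its ratio against the same floor was 4.53, again without the counting error at 24 months. It shared 20.9% of its windows with other genes. Serpina16, a member of the clade a cluster, had 0, 1 and 0 against 10, 4 and 4 (FDR 0.0618), a ratio of 17.5 with a counting interval of 2.76 to 728. Among 6 hepatocyte markers, 4 were called higher and 0 lower, where 20.0% of genes below 1 TPM were called higher, and their summed level was 0.666 to 1.13 CPM at 6 months and 1.44 to 2.00 CPM at 24 months. Albumin (Alb) itself had counts of 0, 0 and 5 against 6, 6 and 5. Their part in the clade a values was not tested.

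Several of the called genes of clade b are known from epithelia. Serpinb12 had counts of 2, 0 and 1 at 6 months and 12, 10 and 4 at 24 months (log2 fold change 2.93, FDR 0.0626), a ratio of 8.41 with a counting interval of 2.58 to 43.4. Serpinb6e had 1, 2 and 0 against 7, 7 and 5 (ratio 6.15, 1.81 to 32.4, FDR 0.0709), and Serpinb9f had 0, 0 and 1 against 6, 5 and 3 (ratio 13.6, 2.07 to 575, FDR 0.0668). Serpinb3b had 0, 0 and 1 against 7, 2 and 3 (ratio 11.6, 1.72 to 498, FDR 0.0940). The older mice were above the younger ones in each of these genes, yet the intervals span more than 10-fold because the 6-month counts add up to 1 to 3.

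Among keratinocyte markers 1 of 6 was called higher, Sprr1a, with counts of 1, 0 and 0 against 3, 4 and 3 (FDR 0.0936), and the list's summed level was 16.0 to 17.8 CPM at 6 months and 15.9 to 19.0 CPM at 24 months. Of 7 T and NK cell markers, 3 were called higher and 0 lower, where 20.0% of genes below 1 TPM were called higher and 88.8% were fitted higher. Nkg7, a cytotoxic granule protein, had counts of 1, 1 and 1 against 10, 20 and 4 (FDR 0.0552). The summed level of this list was 0.290 to 0.580 CPM at 6 months and 0.970 to 2.11 CPM at 24 months. Granzyme B (Gzmb), the target of Serpinb9, had counts of 2, 1 and 2 against 4, 7 and 2 (FDR 0.248). The part of these cells in the Serpinb9b value was not tested.

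**Figure D3:**
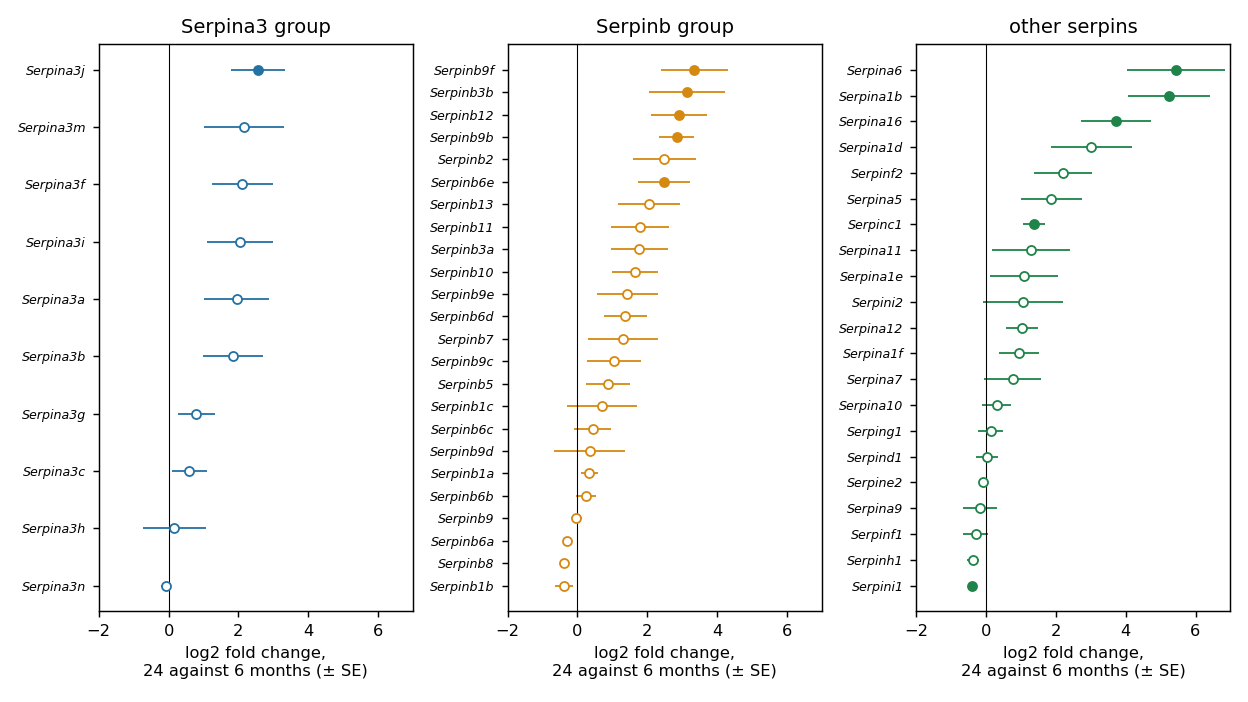
Fitted log2 fold change (24 against 6 months, ± SE derived from the fold change and the F statistic of the quasi-likelihood test) of the serpins tested, except 1 gene that is not drawn, by clade group and ordered by size, with filled points for genes called at 10% FDR. Serpina6 and Serpina1b, with 0 counts at 6 months, have fitted values that depend on the prior count of the fit, and expressed genes such as Serpine2, Serpina3n and Serpinb9 have narrow bars close to 0.

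The size of the age difference followed the level of expression in serpins as in other genes. Of the 51 members below 1 TPM, 49 had more counts at 24 than at 6 months in sum, although their counts were few. Over all tested members 46 of 56 were fitted higher, where 58.4% of all genes were, and below 1 TPM 42 of 43, where 88.8% were. The fitted median was 1.65 over the 43 of them that were tested, and 1.09 over all 14286 genes tested below 1 TPM. Over the 5663 protein-coding genes tested at that level it was 1.23. A gene with few counts at 6 months entered the test only through its counts at 24 months, so these medians describe the genes tested and not all 51. Between 0.1 and 0.3 TPM the median was 1.86 for 34 serpins and 1.58 for all genes, and between 0.3 and 1 TPM it was 0.80 for 9 serpins and 0.56 for all genes. Above 1 TPM the 13 serpins had a median of -0.075 and all genes of that level -0.12.

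**Figure D4:**
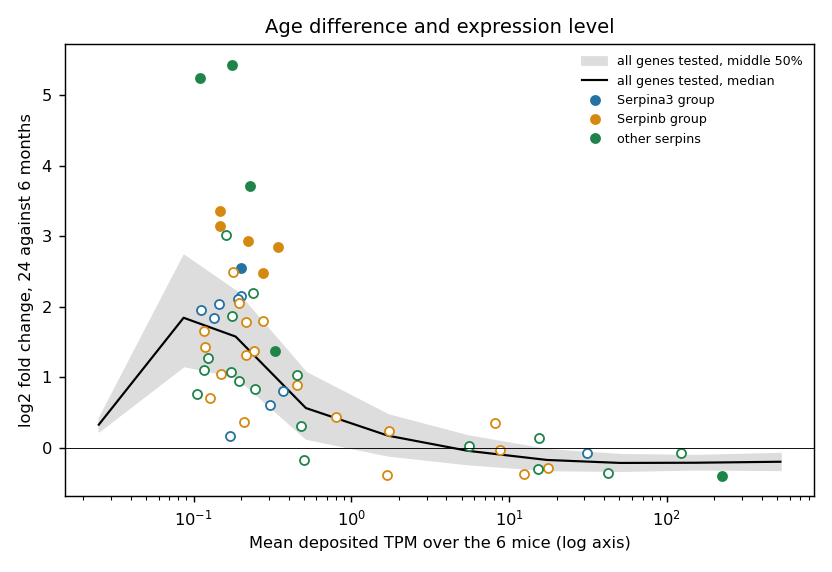
Fitted log2 fold change (24 against 6 months) against the mean deposited TPM over the 6 mice (log axis), with 1 point per serpin (colour by clade group, filled when called at 10% FDR), the median of all genes tested in bins of TPM (line) and their middle 50% (grey band). All but 1 of the 43 tested serpins below 1 TPM lie above 0, where the band lies too, and the 13 serpins above 1 TPM lie near 0.

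By group, the median log2 fold change was 1.89 over the 10 tested genes of the Serpina3 group, 1.34 over the 24 tested of the Serpinb group and 0.99 over the 22 tested of the other serpins, where the median over all genes was 0.15. Of these tested genes, 9 of 10, 18 of 24 and 16 of 22 had a mean below 1 TPM. Differences between the groups were not tested. Within the Serpinb group the median was 1.79 on chromosome 1 (10 tested) and 0.57 on chromosome 13 (14 tested), the latter holding 5 of the 6 expressed members. All 24-month mice lay above all 6-month mice in 20 members, 4, 10 and 6 in the 3 groups, where 20.0% of all genes tested and 38.0% of those below 1 TPM did so. All 20 had a mean below 1 TPM.

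The low-level serpins were also set beside olfactory, vomeronasal, taste and trace amine receptor genes, nearly all of which are known from sensory epithelia. Over 2065 such sensory receptor genes the 6-month mice had 0.0231 ± 0.00143 CPM per kb of exon and the 24-month mice 0.0690 ± 0.0160 (SD, n = 3), a ratio of 2.99. Over the 51 serpins below 1 TPM it was 0.0355 ± 0.00437 and 0.0882 ± 0.0272, a ratio of 2.49. By group the ratio was 2.68 for the 10 low-level genes of the Serpina3 group, 3.07 for 22 of the Serpinb group and 2.11 for 19 other serpins. Both kinds of genes were highest in mouse 2, then mouse 4, then mouse 5 among the 24-month mice. Over the 41 members that were not called the ratio was 2.05, but taking out the members called higher on the same counts lowers it by construction. At 24 months the density of Serpinb9b was above that of 97.7% of the sensory receptor genes, that of Serpinc1 above 96.0%, and that of Serpina1b above 44.7%. These genes were called on the same 24-month counts, so a high rank there follows in part from the choice. Members below 1 TPM that were not called ranged from 7.07% (Serpina1c) to 99.4% (Serpinb6c).

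**Figure D5:**
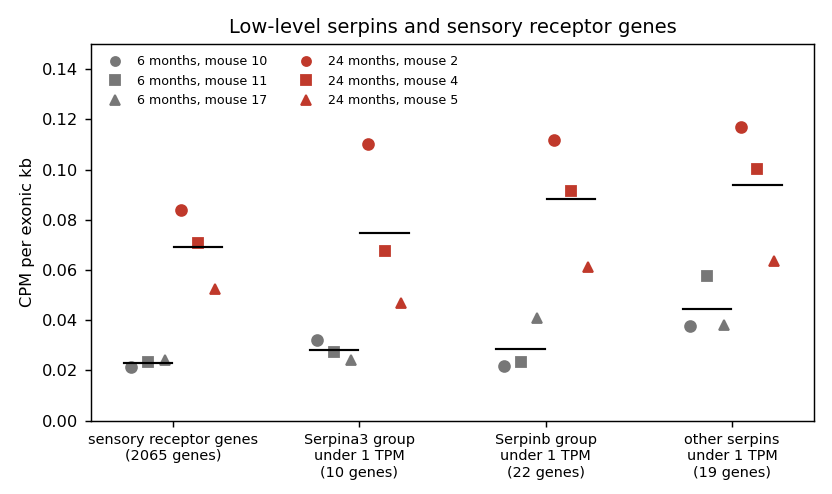
Density of counts (TMM-scaled CPM per kb of exon) summed over 2065 sensory receptor genes and over the serpins below 1 TPM of each clade group, with 1 point per mouse (grey, 6 months, red, 24 months) and a line at the mean of each age. All 4 sets are higher in each 24-month mouse than in each 6-month mouse, and mouse 2 is highest in each set.

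The remaining members were described by their counts. The 8 members not tested had 2 to 9 counts over the 6 mice, and 7 of them had more counts at 24 months. Serpina1a and Serpine3 had 0 counts at 6 months, with 1, 3 and 0 and 3, 3 and 1 at 24 months. Serpinf2, alpha-2-antiplasmin, had 0, 3 and 2 at 6 months against 5, 16 and 4 at 24 months and did not pass 10% FDR. Serpina9 was the only tested member below 1 TPM with a negative fitted value (counts of 15, 30 and 8 against 9, 25 and 14, log2 fold change -0.18), which turned to 0.0050 with library totals.

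The partners of the family were read from lists in the same fit. Of 21 serine protease targets tested, 4 were called higher and 1 lower, with a median of 0.54, where 10.0% of all genes and 20.0% of those below 1 TPM were called higher. Besides Plat, these were plasminogen (Plg, counts of 1, 1 and 2 against 15, 8 and 5, FDR 0.0588), factor X (F10, 0, 0 and 1 against 3, 11 and 6, FDR 0.0588), complement C1s (C1s1, 26, 31 and 23 against 41, 63 and 45, log2 fold change 0.85, FDR 0.0669) and protein C (Proc, 2, 1 and 1 against 6, 6 and 5, FDR 0.0799). C1s1, a target of Serping1, was the one among them with over 20 counts in every mouse. Of 10 clearance receptors and cofactors, megalin (Lrp2) was called higher, with counts of 6, 11 and 3 against 47, 32 and 24 (log2 fold change 2.31, SE 0.44, FDR 0.0518). The VLDL receptor (Vldlr) was called lower (log2 fold change -0.29, FDR 0.0982), with -0.098 under library totals, where 8.33% of all genes tested were called lower. Of 15 protease inhibitors of other families, Spint1 was called higher (34, 32 and 32 against 61, 61 and 75, log2 fold change 0.96, FDR 0.0519) and 0 were called lower.

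Markers of other cell types were read in the same way. Of 7 microglia markers, Tmem119 was called higher (log2 fold change 0.34, FDR 0.0683) and Csf1r lower (-0.34, FDR 0.0646). Among the 18619 genes tested of at least 1 TPM, 437 were called higher and 2733 (14.7%) lower. None (0) of 6 endothelial, 6 meningeal, 6 choroid plexus or 6 oligodendrocyte markers was called by edgeR, and 0 of each had an unadjusted p under 0.05. The summed CPM of the choroid plexus markers was 43.5, 16.5 and 24.8 at 6 months against 40.2, 42.0 and 19.5 at 24 months (mice in the order above). Oligodendrocyte markers summed to 2367 to 3714 CPM at 6 months and 1258 to 4051 CPM at 24 months.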

How the data were processed

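RNA-seq of cerebral cortex from 3 mice of 6 months and 3 of 24 months was used. Per the labels and the study's methods, the authors trimmed reads with Trim Galore 0.6.4, mapped them to GRCm38 with STAR 2.7.3a and counted exonic reads with featureCounts of Subread 2.0.0. The deposited counts were whole numbers per gene, although the stated options divide multi-mapped reads. The deposited TPM values were computed by the authors from counts and exonic length, and were used for levels. Counts were tested with edgeR 4.0.16 in R 4.3.3 (TMM factors, at least 10 counts over the 6 libraries, quasi-likelihood test without covariates, Benjamini-Hochberg FDR over all genes tested). Each SE of a log2 fold change is its absolute value divided by the square root of the F statistic of that test. The design stated by the study names edgeR at 1% FDR, and calls here are also given at 10% FDR. With 3 mice against 3, an exact permutation test of 1 value cannot go below p = 0.1, so none was run.

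Ratios of low counts used TMM-scaled library sizes, an exact conditional interval (95%, counting error only) and a floor of 3 counts per age. All 64 members were found in GENCODE vM21, which supplied positions, overlaps and transcripts, and 63 had the same symbol there. Promoters were those of RefSeq (GRCm38.p6), with 250 upstream bases, and 10 members had none. Named genes were every serpin of at least 1 TPM, every serpin past 10% FDR, Serpinb9b, and up to 4 genes of smallest p in each of 17 lists. The values of 1 member are not reported here by name. Other serpins and Alb, Gzmb and Proc were named after their values were seen. The members and lists were chosen with earlier results of these data known, so counts over them are descriptions. Alternatives were the likelihood ratio and exact tests of edgeR, DESeq2 1.42.0, its size factors, library totals, 3 other filters, log2(TPM + 1) and log2(TPM + 0.1) in limma 3.58.1, and each mouse left out. Of the tested members, 22 had no adjusted p in DESeq2 and stayed out of its counts. The quasi-likelihood test was checked on simulated data in which the changed genes had a mean above 1 CPM, so the check does not cover the calls at lower level. Python 3.11.15 (pandas 2.3.3, scipy 1.17.1, numpy 2.4.6) served for sequences and summaries.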

Additional observations from a re-analysis of the deposited data

How the results depend on the processing

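No paired analysis was possible because the ages share no replicate number (mice 10, 11 and 17 against 2, 4 and 5). Serpins higher at 10% FDR numbered 10, but 18 with the likelihood ratio test, 3 with DESeq2, 2 with filterByExpr, 0 at a mean of at least 1 CPM, and 0 to 16 with a mouse left out (0 for mouse 10, 11, 2 or 4, 5 for mouse 17, 16 for mouse 5). The 1 lower serpin, Serpini1, became 0 with DESeq2, library totals and these 2 filters, and 0 to 2 with a mouse left out. At an unadjusted p under 0.05, 16 were higher (25 with library totals, 3 with filterByExpr, 0 at 1 CPM, 10 to 20 with a mouse left out) and 3 lower (0 with library totals and with both filters, 1 to 3 with a mouse left out). All 24-month mice were above in 20 (2 with filterByExpr, 1 at 1 CPM, 14 to 26 with a mouse left out) and below in 4 (2 with DESeq2 size factors and without the count minimum, 1 with filterByExpr, 0 with library totals and at 1 CPM, 2 to 4 with a mouse left out). The filters keep fewer low-level genes, and under filterByExpr the median log2 fold changes of all serpins, the Serpina3 group, the Serpinb group and the others were 0.11, 0.038, 0.35 and 0.088, and at 1 CPM 0.080, 0.079, 0.13 and -0.034. With a mouse left out they were 0.60 to 1.39, 1.03 to 2.01, 0.89 to 1.52 and 0.34 to 1.16. Of the 23 serpins named by rule, 5 changed sign under some setting, each within its SE of 0 in the values reported. Serpine2 turned to 0.12 with library totals, 0.038 with filterByExpr, 0.080 at 1 CPM and 0.038 on both TPM scales. Serpina3n turned to 0.12, 0.038 and 0.079 under these settings and to 0.044 and 0.045 on the TPM scales (pseudocounts 1 and 0.1), and ran from -0.15 to 0.039 with a mouse left out (above 0 when this was mouse 17 or 2). Serpinb9 turned to 0.16, 0.085 and 0.13, to 0.080 and 0.088 on the TPM scales and to 0.0091 without the count minimum, and ran from -0.089 to 0.070 with a mouse left out (above 0 for mouse 17, 2 or 4). With a mouse left out Serping1 ran from -0.23 to 0.50 and Serpind1 from -0.25 to 0.36, each below 0 for mouse 10 or 4. The cause of these changes beyond the genes and mice removed was not tested. Depth limits the 51 members below 1 TPM, whose values rest on a few counts per mouse.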

Other observations

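The deposited tables also hold 5 serpin pseudogenes with the suffix -ps in the symbol, which the rule on symbols left out and which entered no comparison. Among the members of the family, Serpina3h and Serpinb10 are also annotated as kinds of pseudogene, and they stayed in the comparisons. Serpina3l-ps had 0 counts in each 6-month mouse and 4, 5 and 4 counts in the 24-month mice 2, 4 and 5. Serpina3d-ps had 1, 4 and 0 counts at 6 months against 4, 1 and 0 at 24 months, and Serpina3e-ps had 0, 2 and 1 against 4, 2 and 0. Serpina4-ps1 had 1, 0 and 0 against 1, 2 and 1, and Serpinb1-ps1 had 1, 0 and 1 against 0, 2 and 4. With these counts no order between the 5 pseudogenes could be read, and the values are those of genes at the same level as the low-level members of the family.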
